A study of Mus musculus with 15 samples.

Results

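The astrocyte genes are 43 genes taken by name from a list, out of 34910 genes in the count table. They are genes used as markers of astrocytes or known for high expression in them. All 43 were found by symbol, the transcripts of each were summed to a gene, and all 43 were among the 15141 genes kept for testing. RNA was sequenced from wild type mouse neural progenitor cells, the precursors from which neurons and glia arise, as 5 groups with 3 libraries each. All groups were grown with FGF2, EGF and heparin and were given plasmids that encode EGFP and a hairpin RNA (shRNA) designed to degrade its target RNA, followed after 3 days by sorting for GFP. The groups are shControl (control hairpin), shLINE_Orf1, shLINE_Orf2 and shLINE_MdV_I (hairpins against the LINE-1 retrotransposon), and shLINE_Orf1+LINE-1, in which full-length LINE-1 was supplied together with the hairpin. The series' design text speaks of hairpins against young and old LINE-1s and of LINE-1 added to a hairpin against the young ones. The labels used here do not say which age shLINE_Orf2 or shLINE_MdV_I stands for. LINE-1 RNA itself was not analysed here, so the strength of each knockdown is not given.

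Astrocytes are glial cells that take up glutamate and potassium, couple to each other through gap junctions, supply lipids in apolipoprotein particles, and secrete proteins that act on synapses and vessels. Many of their genes are already transcribed in radial glia and cultured neural progenitors, while others, such as Gfap and Aqp4, rise when progenitors leave growth factors and are exposed to cytokines of the gp130 and bone morphogenetic protein (BMP) families. FGF2 and EGF keep cultured progenitors dividing and undifferentiated.

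Libraries held between 39204176 and 51070448 counts on genes, and mitochondrial genes took between 1.36% and 3.61% of them. The library shLINE_Orf1 replicate 1 stood apart from the rest: its score on the first principal component over all genes was 75.9, against -18.8 to 24.3 for the other 14, and it had the highest mitochondrial share. The second highest score belonged to shControl replicate 2. Values below are therefore also given without these 2 libraries where a result rests on them. Replicate numbers were not taken as pairs, because same-numbered libraries of different groups showed little correlation, which cannot exclude a shared culture or batch. The labels do not say that replicates came from separate cultures, so the p-values reflect sample-to-sample spread that could be technical. In bulk RNA, fewer cells of a type and less RNA per cell cannot be told apart.

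The labelled cell type was checked against markers. Among 8 progenitor markers, Sox2 lay between 141 and 222 CPM (counts scaled to library size with edgeR's TMM factors) and Nes between 154 and 404. Oligodendrocyte lineage factors were also high, with Olig1 at 1528 to 2478 CPM. Of 12 microglia and macrophage markers, Aif1, Tyrobp, C1qa and C1qb were at 0 in all 15 libraries, while 4 others were kept for testing and the list summed to between 30.5 and 41.2 CPM. Of 7 endothelial markers, Cldn5 and Cdh5 were at 0 in 12 and 13 libraries, while 5 were kept for testing and the list summed to between 22.8 and 49.1 CPM. Of 8 markers of pericytes, fibroblasts and meningeal cells, Lum was at 0 in 11 libraries, while 3 were kept for testing and the list summed to between 9.02 and 13.8 CPM.

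The astrocyte genes spanned a wide range of levels in these progenitors. In TPM, a level corrected for transcript length, the highest in shControl were the metallothionein gene Mt1 at 1637 ± 338 (SD, n = 3, as for all SDs below), the glutamate transporter gene Slc1a3 at 921 ± 239 and the cysteine protease inhibitor gene Cst3 at 783 ± 131. Mt3 followed at 738 ± 134 TPM, Apoe, which encodes the main apolipoprotein of the brain, at 676 ± 112 TPM, and Acsbg1, a fatty acid CoA ligase gene, at 398 ± 60 TPM. The SDs of neighbours in this order overlap from Slc1a3 to Apoe.

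Genes of mature astrocytes were low on the same TPM scale. Gfap, the astrocyte intermediate filament gene, was at 2.35 ± 0.91 TPM in shControl, and Aqp4, the water channel of astrocyte endfeet, was at 1.61 ± 0.64 TPM. The connexin gene Gjb6 was at 0.533 ± 0.130 TPM, and Itih3, a hyaluronan-binding protein gene, was lowest at 0.128 ± 0.079 TPM, with 1 to 23 counts per library. Aldh1l1, a folate enzyme gene used as a broad astrocyte marker, was far higher at 128 ± 11 TPM, and the junction gene Gja1 was at 64.8 ± 21.1 TPM. The second glutamate transporter gene Slc1a2 was at 14.3 ± 2.1 TPM, far below Slc1a3. Slc1a3 alone gave 2155 ± 347 of the 8925 ± 329 CPM that the 43 genes summed to in shControl.

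**Figure D1:**
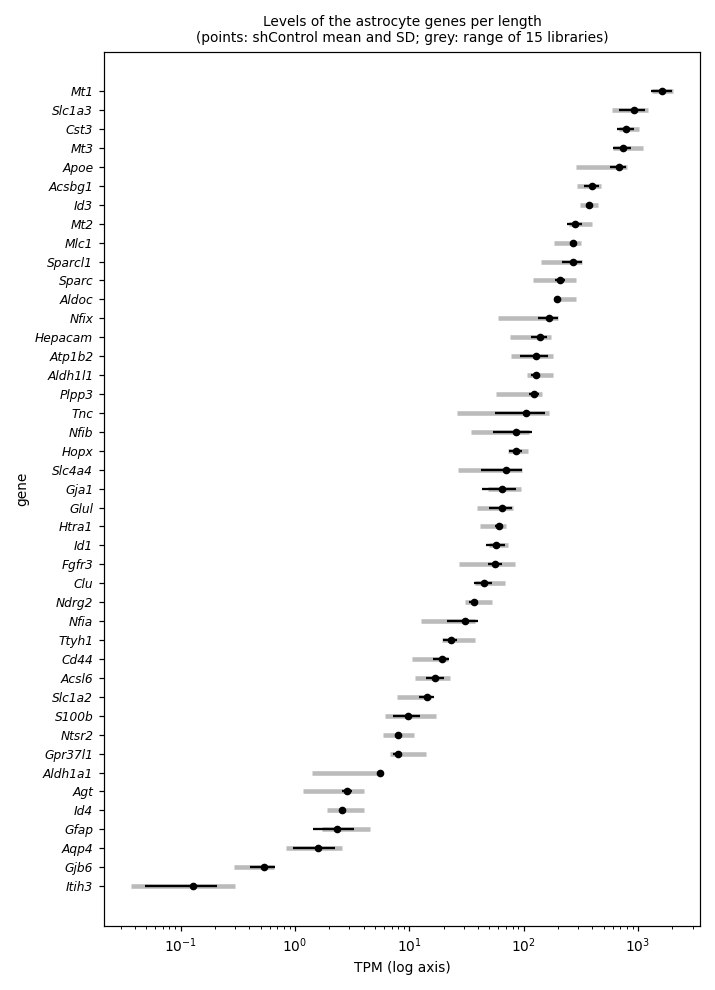
Level of each of the 43 astrocyte genes in TPM on a log axis, ordered by the shControl mean (points, with bars for the SD over 3 libraries), with grey bars for the range over all 15 libraries. Mt1, Slc1a3 and Cst3 lead, and Gfap, Aqp4, Gjb6 and Itih3 are the 4 lowest.

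Summed over the 43 genes, the groups were close. The sum was 8925 ± 329 CPM in shControl, 9415 ± 863 in shLINE_Orf1, 8877 ± 268 in shLINE_Orf2, 8438 ± 335 in shLINE_MdV_I and 9511 ± 131 in shLINE_Orf1+LINE-1. The shLINE_MdV_I libraries lay between 8195 and 8819 CPM and overlapped the shControl range of 8555 to 9185. The lowest shLINE_Orf1+LINE-1 library, at 9375 CPM, lay above all shControl libraries and all shLINE_MdV_I libraries. The sum is given as a description, with no test.

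Single libraries set many of the extremes. The library shLINE_Orf1 replicate 1 was the lowest of 15 for 12 of the 43 genes and the highest for 10, beside 29.1% and 26.5% of all tested genes. Replicate 2 of the same group was the highest for 13 astrocyte genes, against 4.48% of all genes. Among the genes lowest in replicate 1 were Tnc, Nfia, Nfib, Nfix and Slc4a4, and among those highest in it were Mt1, Mt2, Mt3, Cst3 and S100b. Over the 43 genes, the deviation of shLINE_Orf1 replicate 1 from the median of all libraries, on a log2 scale, ran against transcript length, with a Spearman rho of -0.68. That of shControl replicate 2 did likewise, with a rho of -0.62. In shControl replicate 1 the rho was 0.55. These rhos describe 1 library each over the same genes, and the part of transcript length in the results was not tested.

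**Figure D2:**
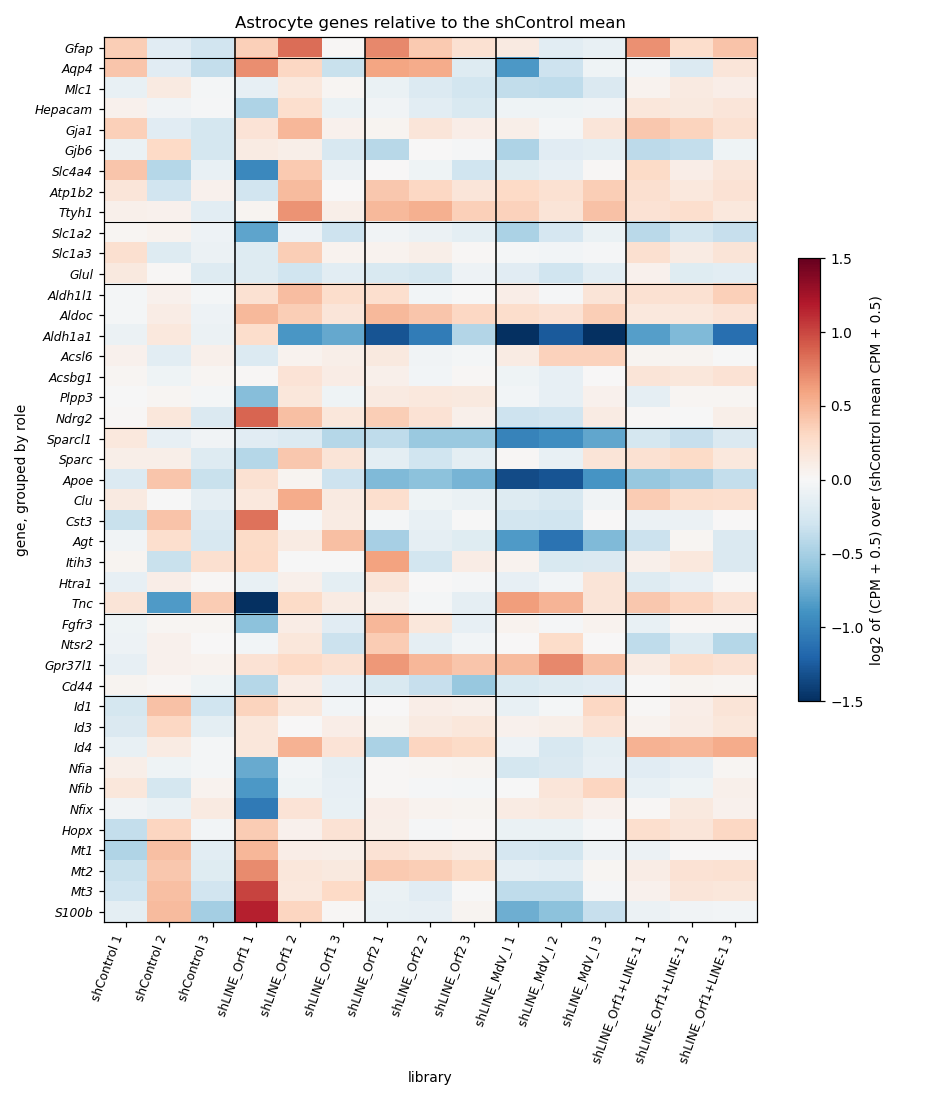
Each cell is the log2 ratio of a gene's CPM in 1 library, with 0.5 added, to its shControl mean with 0.5 added, for 43 genes grouped by role and 15 libraries in 5 groups; red is higher and blue lower. Sparcl1, Apoe, Agt and Aldh1a1 are blue in all 3 shLINE_MdV_I libraries, and shLINE_Orf1 replicate 1 differs from its own group for many genes.

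The question put to each hairpin is whether it moved these genes away from shControl. A gene passed the test where its Benjamini-Hochberg adjusted p over all 15141 genes, from edgeR's quasi-likelihood test, was under 0.05. In shLINE_MdV_I against shControl, 5 of the 43 genes passed, where 0.594% of all tested genes did. Sparcl1, Apoe, Agt and Aldh1a1 fell and Gpr37l1 rose, where 0.337% of all genes passed as lower and 0.258% as higher. Without the 2 libraries that stand apart, the same 5 passed and Aldoc and Id3 were higher as well, where 2.53% of all genes passed in that fit. DESeq2 called 6, where it called 2.01% of all genes with an adjusted p. The other 38 astrocyte genes did not pass in any of 6 comparisons between groups. The median log2 fold change of the 43 genes was -0.07, against -0.01 for all tested genes, and 27 of the 43 were negative, beside 52.4% of all genes.

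The 4 genes that fell do different things. The products of 3 of them are secreted: the matrix protein SPARC-like 1, apolipoprotein E and angiotensinogen. The product of Aldh1a1 is a cytosolic enzyme that makes retinoic acid. The promoters of 4 of the 5 genes that passed are printed because these are the genes the results turn on. They are RefSeq windows on build GRCm38.p6, from 250 bases before to 50 after a gene's start, written 5′ to 3′ on the gene's strand. Capitals mark matches, on either strand, to the motifs named after the sequences. Sparcl1 is named only.

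Agt: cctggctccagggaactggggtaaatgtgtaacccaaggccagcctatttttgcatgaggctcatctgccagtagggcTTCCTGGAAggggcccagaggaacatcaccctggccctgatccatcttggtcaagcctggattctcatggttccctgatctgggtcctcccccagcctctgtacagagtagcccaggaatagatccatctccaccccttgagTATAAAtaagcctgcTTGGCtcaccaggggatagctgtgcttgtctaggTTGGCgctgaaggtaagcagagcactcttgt
Aldh1a1: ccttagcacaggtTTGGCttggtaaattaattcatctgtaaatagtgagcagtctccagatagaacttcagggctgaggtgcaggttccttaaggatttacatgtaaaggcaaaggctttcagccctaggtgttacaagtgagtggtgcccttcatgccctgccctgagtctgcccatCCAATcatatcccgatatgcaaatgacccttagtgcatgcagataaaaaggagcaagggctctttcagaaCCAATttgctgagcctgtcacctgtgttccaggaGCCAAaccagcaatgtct
Apoe: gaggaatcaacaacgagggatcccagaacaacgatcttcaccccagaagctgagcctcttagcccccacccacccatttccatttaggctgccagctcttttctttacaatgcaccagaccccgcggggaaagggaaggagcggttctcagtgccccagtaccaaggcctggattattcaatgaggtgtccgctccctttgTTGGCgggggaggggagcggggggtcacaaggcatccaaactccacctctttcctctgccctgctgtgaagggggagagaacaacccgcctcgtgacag
Gpr37l1: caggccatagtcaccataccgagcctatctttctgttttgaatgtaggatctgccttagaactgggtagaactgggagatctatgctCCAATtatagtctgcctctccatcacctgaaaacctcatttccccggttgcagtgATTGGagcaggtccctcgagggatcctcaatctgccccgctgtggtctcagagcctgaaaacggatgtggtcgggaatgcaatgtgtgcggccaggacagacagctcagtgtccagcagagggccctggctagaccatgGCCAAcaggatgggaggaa

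The windows lie at chr8:124569657-124569956 (Agt, minus strand), chr19:20601718-20602017 (Aldh1a1, plus strand), chr7:19699139-19699438 (Apoe, minus strand) and chr1:135167632-135167931 (Gpr37l1, minus strand). The motifs searched on both strands were the TATA box TATAAA, the CCAAT box CCAAT, the nuclear factor I half-site TTGGC, the STAT site TTCNNNGAA, the core of the interferon response element and the GC box GGGCGG, and no matches overlapped. The Agt window held 1 TATAAA, from base 221, 1 TTCNNNGAA, from base 79, and 2 TTGGC. Over all 32851 RefSeq windows of this length, 13.6% held TATAAA and 8.30% held TTCNNNGAA. The Aldh1a1 window held 2 CCAAT and 2 TTGGC, the Gpr37l1 window 2 CCAAT and 1 TTGGC, and the Apoe window 1 TTGGC. Of all windows, 46.7% held TTGGC and 37.4% held CCAAT. The interferon response core, in 3.44% of all windows, and GGGCGG, in 35.7%, had no match in these 4. The Apoe window does not hold the start of Apoe-209, the transcript with the largest share of its counts. A match is a description of the letters and says nothing of a factor's binding.

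Sparcl1, whose product is a secreted matrix protein of astrocytes that promotes synapse formation, lies on chromosome 5 (104079111 to 104113733, minus strand, GRCm38). It was at 479, 396 and 413 CPM in shControl, 381, 373 and 318 in shLINE_Orf1, 329, 292 and 291 in shLINE_Orf2, 213, 225 and 251 in shLINE_MdV_I, and 357, 338 and 370.4 in shLINE_Orf1+LINE-1. All 3 shLINE_MdV_I libraries lay below the other 12, and all libraries of every LINE-1 hairpin group lay below the lowest shControl library. Against shControl, Sparcl1 fell by 0.90 on the log2 scale in shLINE_MdV_I (SE 0.11, adjusted p = 0.000872, edgeR). It passed under all 22 alternatives tried, with an adjusted p of at most 0.0192. The log2 fold change was -0.95 (SE 0.09) without the 2 libraries that stand apart.

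In the other groups Sparcl1 was also below shControl, but did not pass. The log2 fold change was -0.50 ± 0.11 (SE) in shLINE_Orf2 (edgeR adjusted p = 0.0964), -0.26 ± 0.11 in shLINE_Orf1 (adjusted p = 0.423) and -0.27 ± 0.11 in shLINE_Orf1+LINE-1 (adjusted p = 0.459). The shLINE_Orf2 value passed in 3 of 22 alternatives: with DESeq2, without shLINE_Orf1 replicate 1, and without both libraries that stand apart (adjusted p 0.000970 to 0.397 over the 22). Between shLINE_Orf1+LINE-1 and shLINE_Orf1 the difference was -0.01, with a 95% interval from the SE of -0.22 to 0.20.

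Apoe lies on chromosome 7 (19696109 to 19699188, minus strand, GRCm38). It was at 398, 615 and 366 CPM in shControl, 539, 473 and 372 in shLINE_Orf1, 289.9, 300.0 and 283 in shLINE_Orf2, 180.4, 187 and 249.5 in shLINE_MdV_I, and 310.2, 325 and 358 in shLINE_Orf1+LINE-1. The 3 shLINE_MdV_I libraries were the lowest of 15, the 3 shLINE_Orf2 libraries came next, and shControl and shLINE_Orf1 overlapped. The highest shControl value, 615 CPM, came from replicate 2, a library that stands apart. Apoe fell by 1.16 on the log2 scale in shLINE_MdV_I against shControl (SE 0.19, adjusted p = 0.00789, edgeR). It was -0.89 (SE 0.12, edgeR adjusted p = 0.00106) without the 2 libraries. The call was lost in 3 of 22 alternatives: without shLINE_MdV_I replicate 1, without replicate 2 of that group, and in a fit on the 2 groups alone. Over the 22 the adjusted p ran from 1.37e-06 to 0.0982.

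The other hairpin groups and the added LINE-1 did not pass for Apoe. In shLINE_Orf2 the log2 fold change against shControl was -0.66 ± 0.18 (SE, edgeR adjusted p = 0.244), with no overlap of the libraries. In shLINE_Orf1 it was 0.01 ± 0.18 (adjusted p = 0.992), with a 95% interval of -0.35 to 0.36. In shLINE_Orf1+LINE-1 it was -0.47 ± 0.18 against shControl (adjusted p = 0.456) and -0.48 ± 0.18 against shLINE_Orf1 (adjusted p = 0.422), and in both cases all 3 libraries lay below those they were compared with.

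Agt encodes angiotensinogen, the precursor of angiotensin, which astrocytes make in the brain, and lies on chromosome 8 (124556534 to 124569706, minus strand, GRCm38). It is a low gene here, at 2.88 ± 0.30 TPM in shControl and with 60 to 208 counts per library. It was at 3.07, 3.91 and 2.65 CPM in shControl, 4.03, 3.53 and 4.56 in shLINE_Orf1, 2.12, 2.88 and 2.78 in shLINE_Orf2, 1.56, 1.22 and 1.84 in shLINE_MdV_I, and 2.48, 3.27 and 2.69 in shLINE_Orf1+LINE-1. The 3 shLINE_MdV_I libraries were the lowest of 15, and shLINE_Orf1 overlapped shControl. Agt fell by 1.06 on the log2 scale in shLINE_MdV_I against shControl (SE 0.22, adjusted p = 0.0375, edgeR), and its 95% interval ran from -1.48 to -0.64.

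The call of Agt depended on the libraries in the fit. It was lost in 14 of 22 alternatives: with the replicate block, with the description number as a covariate, in a fit on the groups compared alone, and without any of 11 libraries, shControl replicates 1 and 2, shLINE_Orf1 replicate 3, shLINE_Orf2 replicates 2 and 3, and all 3 each of shLINE_MdV_I and shLINE_Orf1+LINE-1. With single libraries left out, the log2 fold change stayed between -1.20 and -0.89 while the adjusted p ran from 0.0199 to 0.228. Agt passed without the 2 libraries that stand apart, with an edgeR adjusted p of 0.0499. The log2 fold change of shLINE_Orf1+LINE-1 against shLINE_Orf1 was -0.52 ± 0.21 (SE, adjusted p = 0.422), with no overlap of the libraries.

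Of the other 6 genes for secreted proteins, none passed in any of the 6 comparisons. Tnc, which encodes the matrix protein tenascin C, had the widest spread of the 6 apart from the very low Itih3: 479, 232 and 550.2 CPM in shControl, 147, 515 and 458 in shLINE_Orf1, and 649, 598 and 483 in shLINE_MdV_I. The low values, 232 and 147, came from the 2 libraries that stand apart. Its log2 fold change in shLINE_MdV_I against shControl was 0.45 in edgeR, the highest of the 9 secreted genes. Cst3 was at 318 to 707 CPM, with the highest value in shLINE_Orf1 replicate 1. Sparc, a matrix protein gene related to Sparcl1, lay between 136 and 241 CPM, and Clu, which encodes the apolipoprotein clusterin, between 38.2 and 66.8. Htra1, a secreted protease gene, varied least of the 9, from 52.5 to 68.9 CPM, and overlaps Fgfr2 on the opposite strand, whose reads cannot be told apart where strand is not stated.

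**Figure D3:**
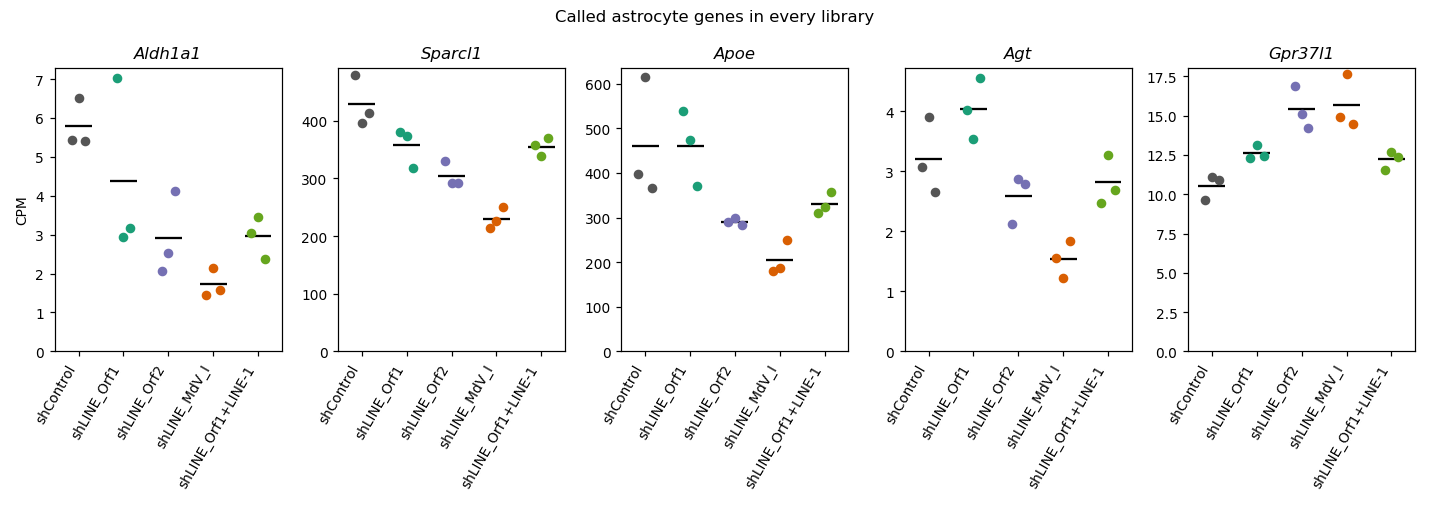
CPM of the 5 genes that passed in shLINE_MdV_I against shControl, with 1 point per library and a line at the mean of 3 libraries, on axes from 0. The shLINE_MdV_I libraries are the lowest for Sparcl1, Apoe and Agt, at 213 to 251, 180.4 to 249.5 and 1.22 to 1.84 CPM.

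Among 7 metabolic enzyme genes, 1 passed. Aldh1a1 lies on chromosome 19 (20492715 to 20643465, plus strand, GRCm38) and had 73 to 302 counts per library. It was at 5.43, 6.53 and 5.40 CPM in shControl, 7.02, 2.93 and 3.18 in shLINE_Orf1, 2.06, 2.53 and 4.13 in shLINE_Orf2, 1.46, 2.13 and 1.57 in shLINE_MdV_I, and 3.03, 3.46 and 2.37 in shLINE_Orf1+LINE-1. All shLINE_MdV_I libraries lay below all shControl libraries, 1 shLINE_Orf2 library lay within the shLINE_MdV_I range, and in shLINE_Orf1 the high value came from replicate 1, which stands apart. Aldh1a1 fell by 1.75 on the log2 scale in shLINE_MdV_I against shControl (SE 0.33, adjusted p = 0.0232, edgeR). The call was lost with the replicate block and without any 1 of shControl replicates 1 and 2 and the 3 shLINE_MdV_I libraries (adjusted p up to 0.176), and the value stayed between -1.92 and -1.63 with single libraries left out. It was -1.65 (SE 0.26, edgeR adjusted p = 0.00202) without the 2 libraries that stand apart.

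Aldh1a1 did not pass in the other groups. Its log2 fold change against shControl was -0.99 ± 0.32 (SE) in shLINE_Orf2 (edgeR adjusted p = 0.366) and -0.97 ± 0.32 in shLINE_Orf1+LINE-1 (adjusted p = 0.348), in both with no overlap with shControl. In shLINE_Orf1 it was -0.41 ± 0.31 (adjusted p = 0.605), and -0.93 ± 0.27 without shLINE_Orf1 replicate 1 (adjusted p = 0.261, over the 22 alternatives 0.165 to 0.938).

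Aldh1l1 was at 224, 239.8 and 224 CPM in shControl, 268, 316 and 274 in shLINE_Orf1, 272, 223 and 229 in shLINE_Orf2, 246, 226 and 262 in shLINE_MdV_I, and 268, 268 and 294 in shLINE_Orf1+LINE-1. The shLINE_Orf1 and shLINE_Orf1+LINE-1 libraries all lay above shControl. The edgeR log2 fold changes were 0.32 ± 0.10 (SE, adjusted p = 0.324) and 0.27 ± 0.10 (adjusted p = 0.453), so neither passed. Aldoc, a glycolytic aldolase gene, was at 204, 225 and 198 CPM in shControl and at 294, 269.7 and 237 in shLINE_Orf1, 292, 279 and 259 in shLINE_Orf2, and 252, 243 and 269 in shLINE_MdV_I. In shLINE_Orf1+LINE-1 Aldoc was at 234, 233 and 241 CPM. All libraries of these groups, also those with added LINE-1, lay above all 3 shControl libraries. The edgeR log2 fold changes were 0.35 in shLINE_Orf1 (adjusted p = 0.193), 0.41 in shLINE_Orf2 (adjusted p = 0.127) and 0.28 in shLINE_MdV_I (adjusted p = 0.298). Aldoc did not pass in shLINE_Orf1+LINE-1 either. With DESeq2, Aldoc passed in shLINE_Orf1 (adjusted p = 0.0227) and shLINE_Orf2 (adjusted p = 0.00648).

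The other 4 enzyme genes did not pass in any comparison: Acsbg1 (599.8 to 755 CPM), Acsl6 (26.1 to 38.5) and Plpp3 (146 to 255), whose products act on lipids, and Ndrg2 (32.5 to 74.9), a hydrolase-like gene. Ndrg2 was highest in shLINE_Orf1 replicate 1.

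Among 4 receptor genes, Gpr37l1, which encodes an orphan G protein coupled receptor of glia, passed. It lies on chromosome 1 (135160234 to 135167681, minus strand, GRCm38). It was at 9.62, 11.1 and 10.9 CPM in shControl, 12.3, 13.1 and 12.4 in shLINE_Orf1, 16.9, 15.1 and 14.2 in shLINE_Orf2, 14.9, 17.7 and 14.5 in shLINE_MdV_I, and 11.6, 12.7 and 12.4 in shLINE_Orf1+LINE-1. All 12 libraries of the other groups lay above the 3 of shControl, and shLINE_Orf2 and shLINE_MdV_I overlapped each other above the rest. Gpr37l1 rose by 0.57 on the log2 scale in shLINE_MdV_I (SE 0.12, adjusted p = 0.0355, edgeR), and in shLINE_Orf2 the log2 fold change was 0.55 ± 0.12 without passing (adjusted p = 0.0934).

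The call of Gpr37l1 held in 7 of 22 alternatives. It was lost with no filter on low counts, with the replicate block, with the description number as a covariate, in a fit on the groups compared alone, and without any of 11 libraries, namely all 3 each of shControl and shLINE_MdV_I, shLINE_Orf1 replicate 3, and replicates 2 and 3 of shLINE_Orf2 and of shLINE_Orf1+LINE-1. With single libraries left out, the value stayed between 0.49 and 0.63 with adjusted p between 0.0135 and 0.176. Without the 2 libraries that stand apart it was 0.61 (SE 0.12, edgeR adjusted p = 0.0120). The other receptor genes, Fgfr3 (a fibroblast growth factor receptor, 82.7 to 179.7 CPM), Ntsr2 (a neurotensin receptor, 5.36 to 9.72 CPM) and Cd44 (a hyaluronan receptor, 29.8 to 47.7 CPM), did not pass. Cd44 was lower than in shControl in all 3 shLINE_Orf2 libraries, with an edgeR log2 fold change of -0.38 ± 0.12 (SE, adjusted p = 0.382).

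Gfap, the gene most used as a sign of astrocyte differentiation, was low in every group. It was at 4.66, 3.07 and 2.77 CPM in shControl, 4.64, 6.64 and 3.55 in shLINE_Orf1, 6.12, 4.75 and 4.18 in shLINE_Orf2, 3.88, 3.09 and 3.20 in shLINE_MdV_I, and 5.96, 4.32 and 4.89 in shLINE_Orf1+LINE-1. Every group overlapped shControl. The edgeR log2 fold changes against shControl were 0.50, 0.52, -0.05 and 0.53 in that order of groups, each with an SE of 0.25, and none passed (adjusted p 0.492 to 0.980). With 132 to 285 counts per library, the 95% interval for shLINE_MdV_I was -0.54 to 0.44.

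None of the 8 channel, pump and junction genes passed in any comparison. Aqp4 was at 6.38, 4.08 and 3.53 CPM in shControl and 2.34, 3.65 and 4.46 in shLINE_MdV_I, overlapping, with a log2 fold change of -0.42 ± 0.32 (SE, edgeR adjusted p = 0.816). Gja1 was at 147, 101 and 95.6 CPM in shControl and 122, 112 and 130.0 in shLINE_MdV_I, a log2 difference of 0.08 ± 0.15 (edgeR adjusted p = 0.938) and a 95% interval of -0.20 to 0.37. In shLINE_Orf1+LINE-1, Gja1 was at 151, 145 and 135 CPM and overlapped shControl through its replicate 1.

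Mlc1, a membrane protein gene of astrocyte junctions mutated in a leukodystrophy, was at 410.1, 487 and 437 CPM in shControl and 343, 341 and 382 in shLINE_MdV_I. These groups did not overlap, but the log2 fold change of -0.32 ± 0.10 (SE) did not pass in edgeR (adjusted p = 0.225), and it passed in DESeq2 (adjusted p = 0.0462). Hepacam, whose product is an adhesion partner of MLC1, lay between 183 and 302 CPM, the bicarbonate transporter gene Slc4a4 between 122 and 318, the sodium pump subunit gene Atp1b2 between 158 and 268, the chloride channel gene Ttyh1 between 27.0 and 48.3, and Gjb6 between 0.340 and 0.929.

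None of the 3 glutamate handling genes passed. Slc1a3 was at 2546, 1887 and 2031 CPM in shControl and 2115, 2099.9 and 2132 in shLINE_MdV_I, which lay within the shControl range, with a log2 fold change of -0.03 and a 95% interval of -0.28 to 0.23 (edgeR). Slc1a2 was at 55.6, 56.4 and 51.7 CPM in shControl and 39.3, 45.8 and 51.1 in shLINE_MdV_I, with no overlap, and at 31.3, 51.7 and 43.8 in shLINE_Orf1. Its log2 fold changes were -0.27 ± 0.14 (SE, edgeR adjusted p = 0.679) and -0.37 ± 0.15 (adjusted p = 0.418). Glul, the glutamine synthetase gene, lay between 54.6 and 74.7 CPM over all libraries.

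None of the 7 regulator genes passed. The nuclear factor I genes, which drive the onset of gliogenesis, were lowest in shLINE_Orf1 replicate 1: Nfia was at 67.4 CPM there and between 95.02 and 122 in the other 14 libraries, Nfib at 140.1 against 213 to 319, and Nfix at 80.8 against 157 to 195. Nfia overlaps E130114P18Rik on the opposite strand. Id1, Id3 and Id4, inhibitors of basic helix-loop-helix factors and targets of BMP signals, lay between 25.9 and 43.8, 243 and 349.5, and 4.08 and 8.83 CPM. Id4 was at 5.39, 6.40 and 5.74 CPM in shControl and 8.57, 8.44 and 8.83 in shLINE_Orf1+LINE-1, with no overlap and a log2 fold change of 0.56 ± 0.19 (SE) that did not pass (edgeR adjusted p = 0.372). Hopx, a homeodomain-only protein gene of quiescent stem cells and astrocytes, lay between 44.3 and 74.6 CPM.

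The metal and calcium binding genes were highest in the libraries that stand apart. Mt1, Mt2 and Mt3 encode metallothioneins, which bind zinc and copper, and their similar sequences could share reads. Mt3 was at 191, 319.8 and 193 CPM in shControl and 473, 262 and 289 in shLINE_Orf1, where the top values of both groups came from the 2 libraries that stand apart. None of the 3 passed with all libraries. The 4 genes of this group were all positive in shLINE_Orf1 against shControl, with a median of 0.45, and all negative in shLINE_MdV_I, with a median of -0.22. The latter sign rested on shControl replicate 2: without the 2 libraries that stand apart, 3 of the 4 were positive in shLINE_MdV_I, with a median of 0.07, and in shLINE_Orf1 all 4 stayed positive, with a median of 0.46. Without those 2 libraries, Mt2 had a log2 fold change of 0.41 ± 0.09 (SE) in shLINE_Orf1 (edgeR adjusted p = 0.0322) and Mt3 one of 0.52 ± 0.11 (adjusted p = 0.0344).

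S100b, a calcium-binding protein gene of astrocytes, was at 7.78, 12.3 and 5.95 CPM in shControl, 20.1, 10.9 and 8.75 in shLINE_Orf1, 8.01, 7.90 and 8.98 in shLINE_Orf2, 5.03, 5.48 and 6.72 in shLINE_MdV_I, and 8.10, 8.36 and 8.44 in shLINE_Orf1+LINE-1. The highest value in each of the first 2 groups came from the library that stands apart, and shLINE_MdV_I overlapped shControl. Its log2 fold change in shLINE_MdV_I was -0.59 ± 0.28 (SE, edgeR adjusted p = 0.578). S100b overlaps Dip2a on the opposite strand, which had 1550.5 counts per library on average against 405.8 for S100b itself.

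Whether shLINE_MdV_I differed from the other hairpins was tested against the mean of shLINE_Orf1 and shLINE_Orf2. Sparcl1, Apoe and Agt were lower, 3 of 43 genes where 0.462% of all tested genes passed, 0.258% as lower and 0.205% as higher. The log2 differences were -0.52 ± 0.09 (SE) for Sparcl1 (edgeR adjusted p = 0.0216), -0.83 ± 0.16 for Apoe (adjusted p = 0.0366) and -1.07 ± 0.19 for Agt (adjusted p = 0.0216). For each, all 3 shLINE_MdV_I libraries lay below all 6 libraries of the other hairpins. This follows in part from the choice of genes by that test, and the share of all tested genes without overlap was not counted. The median of the 43 genes was -0.10, against -0.01 for all tested genes, and 29 were negative, beside 51.4% of all genes. At an unadjusted p under 0.05, 16 of the 43 stood, beside 9.29% of all genes.

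These 3 calls depended on the fit. Agt passed in 16 of 22 alternatives, Sparcl1 in 15 and Apoe in 11, and all 3 were lost with the replicate block, in a fit on the groups compared alone, without any 1 of the shLINE_MdV_I libraries and without shLINE_Orf2 replicate 2. Further losses came without shLINE_Orf2 replicate 1 (Sparcl1 and Apoe) and, for Apoe, without shLINE_Orf2 replicate 3 or any 1 of the shLINE_Orf1+LINE-1 libraries. With single libraries left out, the adjusted p reached 0.242 for Sparcl1, 0.316 for Apoe and 0.216 for Agt. The values stayed between -0.59 and -0.46, between -0.996 and -0.740, and between -1.22 and -0.92. Aldh1a1, at -1.05 ± 0.29 (SE, edgeR adjusted p = 0.183), and Gpr37l1, at 0.17 ± 0.10 (adjusted p = 0.626), did not pass. Nor did S100b (-0.87 ± 0.25, adjusted p = 0.200), Aqp4 (-0.78 ± 0.28, adjusted p = 0.386) and Gfap (-0.55 ± 0.22, adjusted p = 0.442). S100b passed in 3 of 22 alternatives, with DESeq2, with the description number as a covariate and without the 2 libraries that stand apart (adjusted p 0.0145 to 0.779 over the 22), Aldh1a1 in 2 and Aqp4 in 1.

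The fit without the 2 libraries that stand apart called 8 of the 43 genes against the mean of the other hairpins, where 1.66% of all genes passed. They were Agt (-1.07), Apoe (-0.77), Sparcl1 (-0.49), S100b (-0.65), Mt1 (-0.32), Mt2 (-0.34) and Mlc1 (-0.27), which were lower, and Tnc (0.37), which was higher. DESeq2 on all libraries called 6, adding Aldh1a1, Ndrg2 and S100b to the first 3, where it called 1.85% of all genes.

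**Figure D4:**
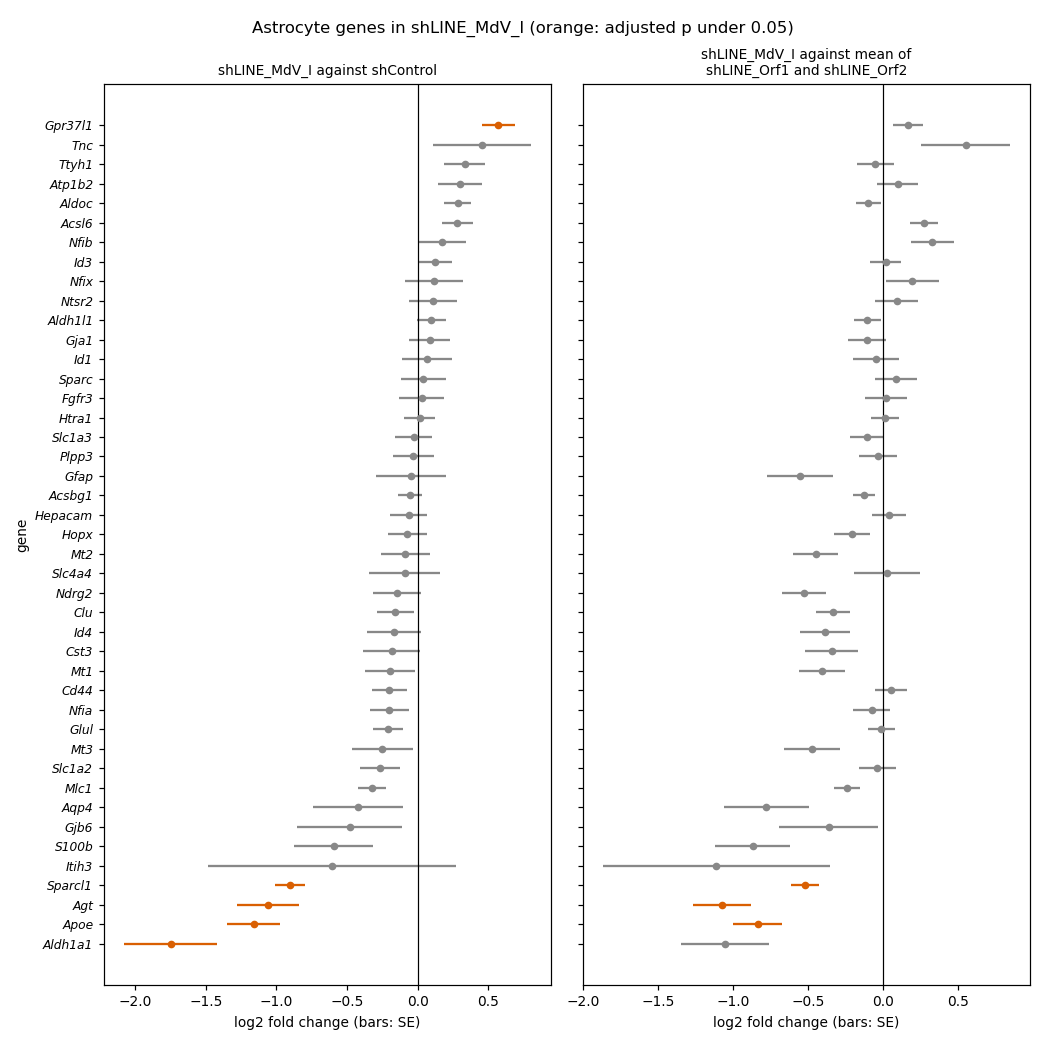
Log2 fold change with its SE for all 43 genes, in shLINE_MdV_I against shControl (left) and against the mean of shLINE_Orf1 and shLINE_Orf2 (right), with genes of adjusted p under 0.05 in orange. Of the 5 genes that passed on the left, Sparcl1, Apoe and Agt also passed on the right.

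In shLINE_Orf1 against shControl, 0 of the 43 genes passed with edgeR, where 0.178% of all tested genes did, 0.139% as higher and 0.0396% as lower. At an unadjusted p under 0.05, 10 did, beside 10.5% of all genes, and DESeq2 called 1, Aldoc, where it called 1.47% of all genes. The median log2 fold change was 0.10, against -0.01 for all genes. In shLINE_Orf2 against shControl, 0 passed with edgeR, where 0.192% of all genes did, 0.0793% as higher and 0.112% as lower. There 7 stood at an unadjusted p, beside 7.01%, and DESeq2 called 4, Aldoc and Gpr37l1 higher and Apoe and Sparcl1 lower, where it called 1.32% of all genes. The median was 0.04. Without the 2 libraries that stand apart, edgeR called 2 of the 43 in shLINE_Orf1, where 0.903% of all genes passed in that fit, and 5 in shLINE_Orf2, where 1.77% did: Aldoc, Gpr37l1, Mt1 and Mt2 higher and Sparcl1 lower.

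The libraries with added LINE-1 address whether it moves the genes from their level in shLINE_Orf1. In shLINE_Orf1+LINE-1 against shLINE_Orf1, 0 of the 43 passed with edgeR, 4 at an unadjusted p under 0.05 and 0 with DESeq2. The background was 0% of all tested genes for the adjusted p, 11.1% for the unadjusted one and 0.132% with DESeq2. The 4 were Ndrg2, Apoe, Agt and S100b, all lower with LINE-1 added, at -0.50, -0.48, -0.52 and -0.67, a share of the 43 below that background. For Ndrg2 and S100b the highest library was shLINE_Orf1 replicate 1, and without the 2 libraries that stand apart the 4 values were -0.28, -0.34, -0.52 and -0.23, again with 0 of the 43 past the adjusted threshold. Against shControl, 0 passed with edgeR, where 0.139% of all genes did, 0.0727% as higher and 0.066% as lower. There 10 stood at an unadjusted p, beside 8.76%, and DESeq2 called 0, where it called 1.57% of all genes. Without the 2 libraries that stand apart, edgeR called 4 against shControl, Hopx, Id3, Mt2 and Mt3, all higher, where 2.29% of all genes passed.

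Asked for any difference among the 5 groups, edgeR called 3 of the 43, Sparcl1 (adjusted p = 0.00660), Apoe (adjusted p = 0.0176) and Agt (adjusted p = 0.0318), where 0.944% of all tested genes passed. DESeq2 called 12, where it called 6.28% of all genes, and without the 2 libraries that stand apart edgeR called 16, where 6.03% of all genes passed. All comparisons with shControl share its 3 libraries, so their values are not independent.

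The transcripts behind the genes were described without a test. For 20 of the 43 genes, 1 transcript took over 90% of the counts on average. Sparcl1-201 took 99.7% of Sparcl1. Apoe was split over Apoe-209 (48.3%), Apoe-206 (32.3%) and Apoe-201 (11.3%), and the share of Apoe-209 was 48.7% ± 4.3 in shControl and 46.9% ± 5.6 in shLINE_MdV_I, so the groups lay within each other's spread. Aldh1a1-201 took 81.9% ± 1.4 of Aldh1a1 in shControl and 84.3% ± 7.1 in shLINE_MdV_I. Gfap was divided between Gfap-201, at 69.2% ± 10.1 in shControl, and Gfap-202, at 30.6% ± 9.9, transcripts that differ at their 3′ ends. RSEM estimates such shares from reads that fit several transcripts, so they carry its error too.

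Other genes of astrocytes and of the pathways that act on them were read as lists. Of 40 other astrocyte genes, 37 were tested. In shLINE_MdV_I against shControl, 1 rose and 1 fell, where 0.258% of all tested genes passed as higher and 0.337% as lower. Cbs, which encodes cystathionine beta-synthase, rose by 0.43 ± 0.08 (SE, edgeR adjusted p = 0.0211). Serpina3n, a secreted protease inhibitor gene of reactive astrocytes, had a log2 fold change of -1.58 ± 0.24 (adjusted p = 0.00569). Serpina3n was at 6.38, 6.09 and 6.52 CPM in shControl, between 1.97 and 2.36 in shLINE_MdV_I and between 1.95 and 3.08 in shLINE_Orf1+LINE-1, where it also fell (-1.40 ± 0.24, adjusted p = 0.0285). Cbs also rose in shLINE_Orf1 (0.43 ± 0.08, adjusted p = 0.0354). DESeq2 called 5 of this list in shLINE_Orf1, 2 in shLINE_Orf2, 2 in shLINE_MdV_I and 4 in shLINE_Orf1+LINE-1, each against shControl. Over all genes it called 1.47%, 1.32%, 2.01% and 1.57% in that order. Cbs and Serpina3n were among those called in each of these groups. Slc39a12, a zinc transporter gene, was lower in shLINE_MdV_I than in the mean of the other hairpins (-0.76 ± 0.15, adjusted p = 0.0382). The medians of the 37 were between -0.08 and 0.12 over the 6 comparisons. Of 22 alternatives, Serpina3n passed in 20 for shLINE_MdV_I (lost without replicate 1 or 2 of that group, adjusted p up to 0.0583) and in 10 for shLINE_Orf1+LINE-1. Cbs passed in 14 for shLINE_MdV_I and in 6 for shLINE_Orf1, and Slc39a12 in 11.

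No gene of 3 pathway lists passed in any of the 6 comparisons with edgeR: 14 tested of 15 in the gp130 and STAT3 pathway, 13 of 16 in the BMP pathway and 15 of 15 liver X receptor and lipid efflux genes, the last because liver X receptors control Apoe. Of all tested genes, 0% to 0.594% passed in these comparisons, so a count of 0 in lists of this size says little about the pathways. In shLINE_MdV_I against shControl, 2, 0 and 1 of them stood at an unadjusted p under 0.05, beside 8.63% of all genes. There DESeq2 called 0 in the BMP and the liver X receptor lists, where it called 2.01% of all genes. Abca1, the lipid exporter that loads apolipoprotein E, was at 41.6, 25.8 and 21.7 CPM in shControl and 15.8, 14.6 and 18.8 in shLINE_MdV_I, with no overlap and a log2 fold change of -0.86 ± 0.27 (SE, edgeR adjusted p = 0.266). The 15 genes of its list had a median of -0.09 in that comparison, with 11 negative and 4 positive, beside 52.4% negative of all genes. They summed to between 635 and 726 CPM in shControl and between 628 and 709 in shLINE_MdV_I, which overlap. Stat3 was at 178, 142 and 182 CPM in shControl and 203, 202 and 182 in shLINE_MdV_I.

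Of 8 markers of neurons, 7 were tested in shLINE_MdV_I against shControl, with a median log2 fold change of 0.51 and 6 of them positive. Over all tested genes the median was -0.01, 52.4% were negative and 0.594% passed. The 1 neuron marker that passed was Snap25, a synaptic vesicle fusion gene. Snap25 was at 4.55, 4.47 and 4.08 CPM in shControl and 7.73, 7.90 and 7.66 in shLINE_MdV_I (0.83 ± 0.15, SE, edgeR adjusted p = 0.0182). It was lost in 8 of 22 alternatives, among them without any 1 library of either group (adjusted p up to 0.0982). Neurod1, a neurogenic factor gene, passed as higher in shLINE_MdV_I than in the mean of the other hairpins (2.16 ± 0.37, SE, edgeR adjusted p = 0.0158). In that comparison 0.462% of all tested genes passed, 0.205% as higher. Neurod1 passed in 18 of 22 alternatives. It was lost without any 1 of the shLINE_MdV_I libraries and in a fit on the groups compared alone (adjusted p up to 0.110). The list summed to between 335 and 521 CPM in shControl and between 432 and 461 in shLINE_MdV_I, most of it from Map2, and Stmn2 was at 0 in 1 library. Of 9 oligodendrocyte lineage markers, 7 were tested in shLINE_MdV_I against shControl, with a median of 0.35 and 6 positive, beside the same all-gene values. Of these 7, 0 passed with edgeR and 0 with DESeq2. At an unadjusted p under 0.05, 1 stood, beside 8.63% of all genes. That list summed to between 2890 and 3408 CPM in shControl and between 2921 and 3195 in shLINE_MdV_I, and Mog was at 0 in 10 libraries. The part of these cell types in the fall of Sparcl1, Apoe, Agt and Aldh1a1 was not tested.

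The authors' deposited table of a mixed model for an effect of young LINE-1 lists 42 of the 43 genes, on a scale and over samples that its header does not name. Its adjusted p is 1 for all of them. The lowest unadjusted p in the authors' deposited table is that of Cd44, 0.00577, followed by Mt2, 0.0301, and it gives 0.0759 for Apoe and 0.761 for Sparcl1.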

How the data were processed

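The authors deposited expected counts per transcript and library, made from reads with cutadapt, RSEM and mm10 per the submitters' processing notes, with versions, settings and annotation not given in the sources used here, and without normalization. The 1 blank entry and 1347 transcripts without a gene in GENCODE M21 (0.595% to 0.650% of a library) were left out. The other 110115 of 111462 were summed to 34910 genes and rounded. Genes were filtered with edgeR's filterByExpr (minimum count 10), and 15141 were scaled with TMM and fitted over all 15 libraries with edgeR 4.0.16 (quasi-likelihood F-test, R 4.3.3, common biological coefficient of variation 0.158). P-values were adjusted over all tested genes. A prior count of 2 was used for the log2 CPM behind the principal components and the correlations of deviations, not for the fold changes. TPM used transcript lengths of GENCODE M21. For the authors' mixed model, the deposited columns used are a t score, a p-value and an adjusted p-value per gene.

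Groups come from the sample titles, and RNA was extracted with TRIZOL and made into libraries by a SMART-seq-type protocol, per the labels. The 43 genes, the other lists and the tests were chosen with earlier results of these data known. Named with values for every library are astrocyte genes that passed in any of 6 comparisons, together with Gfap, Aldh1l1 and S100b. Aqp4, Slc1a2, Slc1a3 and Gja1 were also named whatever their result, with values by library for some groups only. Further genes shown by library (Tnc, Aldoc, Mlc1, Id4, Mt3, Serpina3n, Abca1, Stat3 and Snap25) were chosen after their values were seen. Of 30 same-numbered pairs of libraries in different groups, 3 had a correlation of deviations over 0.1 (range -0.27 to 0.18), so numbers were not taken as pairs. The 22 alternatives were RLE scaling, no filter, DESeq2 1.42.0, a replicate block, a covariate for the number that ends each description in the labels (1 or 12), no 2 libraries that stand apart, only the groups compared, and leaving out each of 15 libraries. The number 12 marks shLINE_Orf1 replicate 1 and shLINE_MdV_I replicates 2 and 3, and the labels do not say what it means. Promoters and their starts are RefSeq's, and 37 of the 43 genes had a window. Some results on genes of the other lists are not reported here.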

Additional observations from a re-analysis of the deposited data

Results flagged for a closer look

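For 3 genes the change from shControl under shLINE_MdV_I differed from the mean change under shLINE_Orf1 and shLINE_Orf2 by the edgeR test of that difference, in which shControl cancels. The log2 difference was -1.07 for Agt, lower in 3 of 3 shLINE_MdV_I libraries than in all 6 others, -0.83 for Apoe, likewise lower in 3 of 3, and -0.52 for Sparcl1, likewise lower in 3 of 3. All 3 calls were lost with the replicate block and in a fit on the groups compared alone. The genes were picked by this test on the same libraries, so the lack of overlap adds no further support. Their shControl comparisons in shLINE_MdV_I were -1.06, -1.16 and -0.90.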

How the results depend on the processing

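For 12 named genes in 6 comparisons, 22 alternatives gave 1584 values. Of these, 1498 kept their side of the threshold and either kept direction or changed sign by less than the SE of the main fit. A further 62 lost a call and 13 gained one. Another 11, without a call, changed sign by at least that SE, and 0 reversed with a call. In all, 47 values without a call changed sign. Against a count of 0 of the 43 genes in shLINE_Orf1 against shControl, DESeq2 called 1, and the fit without shLINE_Orf1 replicate 1 and shControl replicate 2 called 2. For shLINE_Orf2 these fits called 4 and 5, and for shLINE_Orf1+LINE-1 the fit without the 2 libraries called 4. For shLINE_MdV_I against shControl, 5 became 2 with the groups compared alone and 3 with the description number. For shLINE_MdV_I against the mean of shLINE_Orf1 and shLINE_Orf2, 3 became 6 with DESeq2, 9 with the description number, 8 without the 2 libraries and 0 with the groups compared alone. For any difference, 3 became 12, 6 and 16 in the first 3 of these. With single libraries left out the counts ran from 0 to 3 (shLINE_Orf2), 1 to 5 (shLINE_MdV_I against shControl), 0 to 3 (against the mean) and 0 to 6 (any difference), and stayed at 0 elsewhere.

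The replicate block, on numbers not taken as pairs in the main fit, called 2 of the 43 in shLINE_MdV_I against shControl, 0 against the mean and 1 for any difference. Of all genes it called 4, 4, 55, 2, 0, 33 and 56 in shLINE_Orf1, shLINE_Orf2, shLINE_MdV_I and shLINE_Orf1+LINE-1 against shControl, with LINE-1 added against shLINE_Orf1, against the mean, and for any difference, in place of 27, 29, 90, 21, 0, 70 and 143. In the same order DESeq2 called 214, 184, 305, 214, 20, 264 and 914, and the fit without the 2 libraries 139, 272, 389, 353, 0, 256 and 928. The description number gave 25, 44, 167, 39, 0, 511 and 290, and the groups compared alone 1, 4, 29, 4, 0 and 15 in the first 6. Single libraries left out gave 5 to 40, 3 to 119, 22 to 256, 2 to 169, 0 to 1, 11 to 96 and 23 to 363. The cause was not tested. The number of libraries per group limits small changes, and Itih3 and Gjb6, with at most 23 and 43 counts per library, are the least certain.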
